A study of Mus musculus with 6 samples.

Results

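Leukocyte lineage markers are genes whose transcripts are made mainly by white blood cells, and 40 of them, of 18193 genes with a probe set of their own, were followed here in pools of mouse cumulus-oocyte complexes, the oocyte with the cumulus cells around it. They were taken by gene symbol, as 68 of 45037 non-control probe sets that the platform's annotation gives to a member alone. All 40 genes had at least 1 such probe set. Every pool came from wild type immature females that had received equine chorionic gonadotropin (eCG), a hormone that stimulates follicle growth, for 48 h. Groups held 2 arrays each and differed in human chorionic gonadotropin (hCG, the ovulation trigger), with 3 groups named no hCG, 8 h of hCG and 16 h of hCG. By the labels, the complexes without hCG were punctured from ovaries and called expanded, and the complexes of the later times were collected in the oviduct. Ages and numbers of animals are not given. No hCG differs from both other groups in place of collection as well as hormone, and these cannot be told apart. The labels' place for the 8 h complexes is in doubt, since ovulation into the oviduct follows hCG by many hours, and if it were wrong, place would also differ between 16 h and 8 h. Animals were pooled, and since separate collections are not stated for replicates, the p-values reflect array-to-array spread that may be technical.

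Ptprc (CD45) marks nearly all leukocytes. Macrophages and other myeloid cells are known for Fc receptors with their adaptors, integrins of the Itgb2 family, lysozyme, lysosomal proteases and complement C1q, while class II histocompatibility genes present antigen in macrophages, dendritic cells and B cells. Macrophages are known residents of the ovary and enter it in larger numbers around ovulation, and ovulated complexes meet leukocytes of the oviduct.

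Values are log2 intensities, a relative scale on which a difference of 1 is a doubling. A probe set entered the test if its 6 arrays averaged at least 5.62, the 40th percentile of such means. This left 46 member probe sets and 33 genes, each represented by its brightest probe set, and 7 genes without a test. Of the 33, 6 genes (Ptprc, Cd53, Coro1a, Itgb2, Cybb and S100a8) averaged less than that limit in both earlier groups and passed the filter only through their 16 h values, so counts over the tested genes are given as descriptions. The signal over background is unknown, and changes from a low level may be understated. Adjusted p-values are from limma with Benjamini-Hochberg adjustment over all 27022 tested probe sets. The oocyte marker Gdf9 had 11.3 or more and the granulosa and cumulus marker Inha 13.5 or more on every array. The arrays of a group correlated at 0.991 to 0.996, across all probe sets, and arrays of different groups at 0.943 to 0.978.

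From 8 h to 16 h after hCG, most markers of macrophages, antigen presentation and leukocytes in general rose, by between 1.86-fold and 11.1-fold, while the tested T cell marker was not called. Of the 33 tested genes, 26 rose and 0 fell by limma, while 11.8% of all 13559 tested genes rose and 9.12% fell. At an unadjusted p under 0.05, 28 of the 33 rose and 0 fell, and the share of all genes was not computed there. The 26 include the 6 genes that passed the dim filter only through their 16 h values. The median log2 difference was 1.72 over the tested members and 0.01 over all tested genes. By probe set, 35 of 46 rose and 0 fell, against 9.76% and 8.45% of all tested probe sets, of which 18.2% were called in either direction. Both 16 h arrays lay above the other 4 arrays for 27 of the 33 genes, a pattern found for 19.3% of all tested genes. In the same interval the oviduct epithelium marker Ovgp1 rose by 3.85 ± 0.50 and the platelet marker Pf4 by 2.80 ± 0.16, and their part in these results was not tested. In bulk RNA, more cells of a type and more RNA per cell cannot be told apart.

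**Figure D1:**
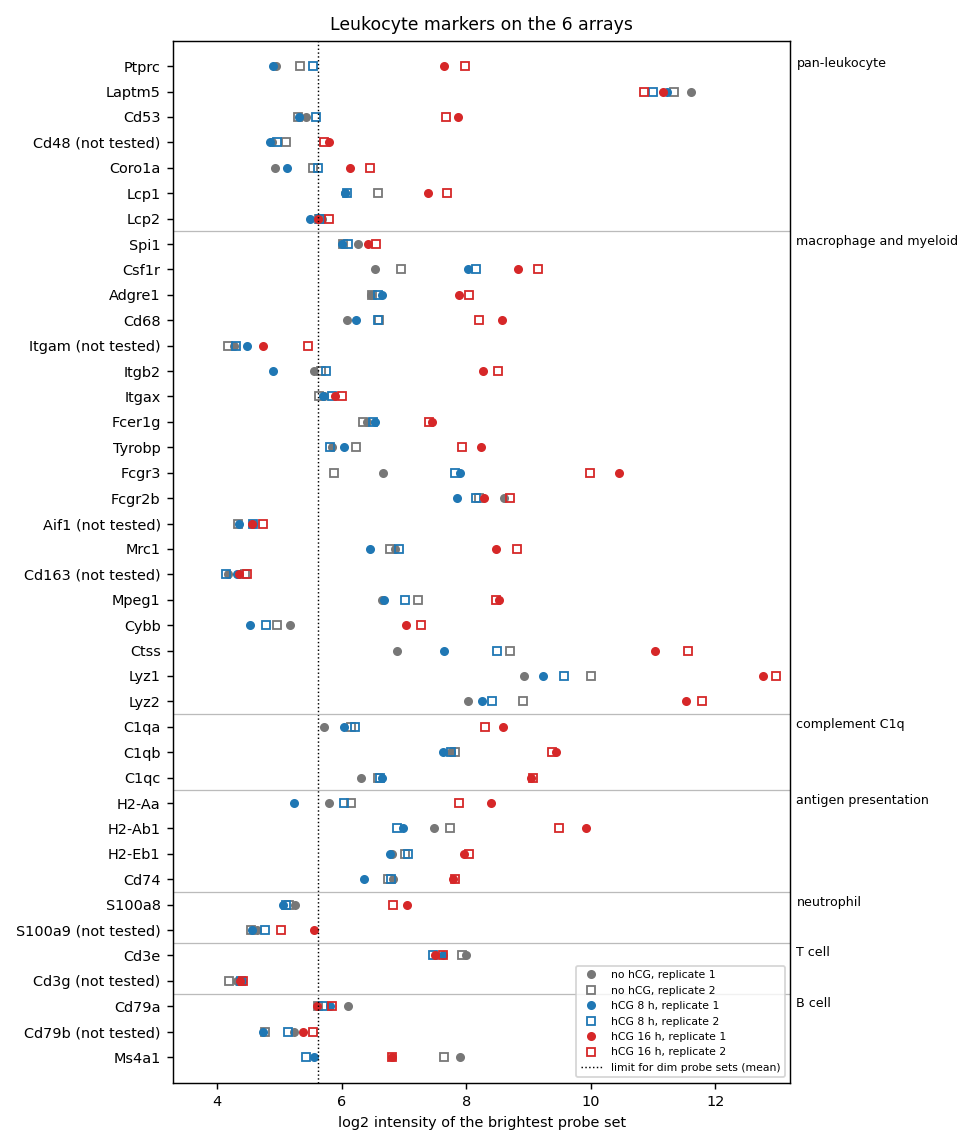
Log2 intensity of each of the 40 markers (rows, grouped by lineage) on the 6 arrays, with filled circles for replicate 1 and open squares for replicate 2. In most macrophage, C1q and antigen presentation rows both 16 h arrays stand to the right of the other 4 arrays, and Ms4a1 is highest without hCG; for genes not tested, the brightest probe set is drawn, and the dotted line is the limit for dim probe sets, applied to the mean.

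Among the pan-leukocyte genes, 4 of 6 tested rose from 8 h to 16 h. Of these 4, Ptprc, Cd53 and Coro1a passed the dim filter only through their 16 h values. Ptprc had 4.95 and 5.33 without hCG, 4.90 and 5.55 at 8 h, and 7.64 and 7.98 at 16 h. Its 16 h arrays stood apart from all others, and it rose by 2.58 ± 0.24 from 8 h to 16 h (SE, n = 2 arrays per group here and below; 5.99-fold, adjusted p = 8.67e-05). A dimmer, untested Ptprc probe set stayed between 4.59 and 5.17 on all 6 arrays. Cd53, a tetraspanin of leukocyte membranes, had 5.44 and 5.30 without hCG, 5.31 and 5.58 at 8 h, and 7.87 and 7.67 at 16 h. It rose by 2.32 ± 0.17 (adjusted p = 2.18e-05), again without overlap between 16 h and the rest. The actin-bundling gene Lcp1 had 6.05 and 6.58 without hCG, 6.05 and 6.08 at 8 h, and 7.38 and 7.69 at 16 h, a rise of 1.47 ± 0.20 (adjusted p = 0.000888). Its second probe set fell at 8 h (−0.65 ± 0.21 against no hCG, adjusted p = 0.0368) and was not called from 8 h to 16 h (0.44 ± 0.21, adjusted p = 0.196). Coro1a, an actin regulator of leukocytes, rose by 0.93 ± 0.24 (adjusted p = 0.0271), but the call went away on leaving out replicate 1 of the 8 h group or either 16 h array (adjusted p = 0.213, 0.0812 and 0.204, where all alternatives spanned 0.00269 to 0.213). Lcp2, a signalling adaptor of T cells, platelets and myeloid cells, lay between 5.50 and 5.80 on all 6 arrays. The adhesion gene Cd48, too dim to be tested, had 4.88 and 5.11 without hCG, 4.85 and 4.97 at 8 h, and 5.79 and 5.72 at 16 h.

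Laptm5, a lysosomal membrane protein of blood cells, gave different answers by probe set. The brightest had 11.60 and 11.33 without hCG, 11.23 and 11 at 8 h, and 11.16 and 10.85 at 16 h, and was not called in any comparison. Another probe set had 5.32 and 6.0 without hCG, 5.23 and 5.91 at 8 h, and 9.02 and 9.05 at 16 h. It rose by 3.47 ± 0.27 from 8 h to 16 h (adjusted p = 3.06e-05), among the largest member differences. A further one rose by 0.83 ± 0.19 (adjusted p = 0.0156), and the other tested one was not called (0.38 ± 0.21, adjusted p = 0.286). The inhibitory IgG receptor gene Fcgr2b was split in the same way. Its brightest probe set was not called (0.49 ± 0.21, adjusted p = 0.148), and the other tested ones rose by 0.92 ± 0.18 (adjusted p = 0.00702) and 1.65 ± 0.16 (adjusted p = 0.000103). Counting a gene as risen where any tested probe set rose and none fell, a rule added after the data were seen, gave 28 of 33. The rule was not applied to all tested genes, so this count has no share to be read against. Whether the annotation of the brightest Laptm5 and Fcgr2b probe sets is right was not tested.

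**Figure D2:**
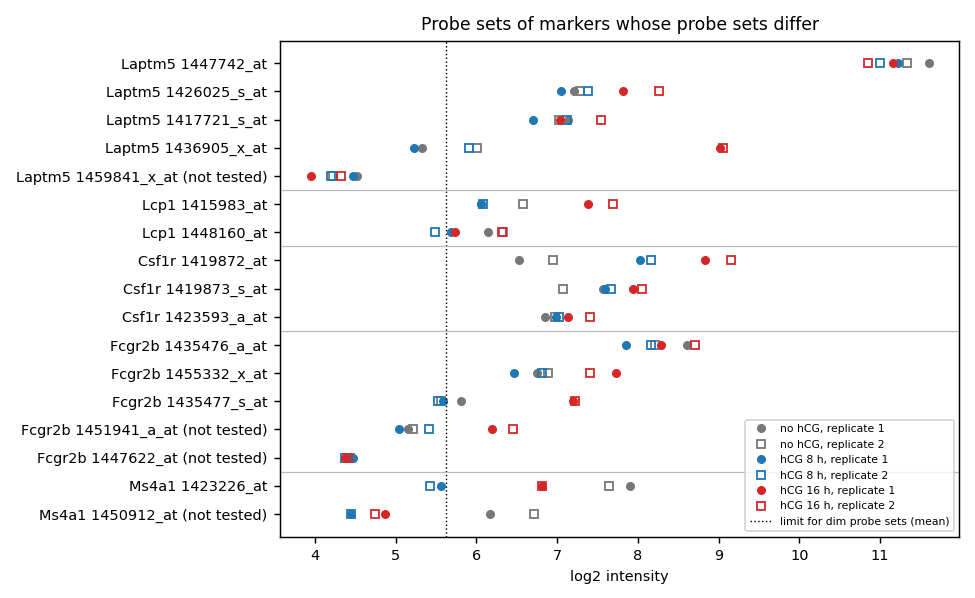
Log2 intensity of every probe set of 5 markers whose probe sets differ, on the 6 arrays (symbols as for the plot of all markers). For Laptm5 and Fcgr2b the brightest probe set shows no separate 16 h arrays while dimmer ones do, and for Csf1r 1 of 3 carries the step at 8 h.

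Lysozyme transcripts showed the largest rises of the members between 8 h and 16 h by their brightest probe sets. The near-identical genes Lyz1 and Lyz2, which encode the bacteria-digesting enzyme of phagocytes, share so much sequence that their probe sets may read both. The promoter stretches are shown here because they make that likeness visible. Over the 130 bases before the start, 120 were identical between the genes (92.3%). Capitals mark the 7-base sequence ACTTCCT, the reverse complement of AGGAAGT, a form of the site known to bind ETS family factors such as the Spi1 protein. The sequences are from RefSeq on GRCm38.p6 (Lyz1 at chr10:117292869-117292998 and Lyz2 at chr10:117282273-117282402, both minus strand), written 5′ to 3′.
Lyz1: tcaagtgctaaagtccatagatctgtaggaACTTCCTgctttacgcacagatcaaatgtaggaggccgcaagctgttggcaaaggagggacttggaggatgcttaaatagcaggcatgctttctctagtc
Lyz2: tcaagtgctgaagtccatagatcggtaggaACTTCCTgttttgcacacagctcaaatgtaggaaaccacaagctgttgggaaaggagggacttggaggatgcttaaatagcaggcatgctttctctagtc

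Lyz1 had 8.93 and 10.01 without hCG, 9.24 and 9.56 at 8 h, and 12.76 and 12.97 at 16 h. Lyz2 had 8.03 and 8.92 without hCG, 8.26 and 8.42 at 8 h, and 11.52 and 11.79 at 16 h. For both, the 8 h arrays lay inside the range of the arrays without hCG and the 16 h arrays above all others. Lyz1 rose by 3.47 ± 0.30 from 8 h to 16 h (11.1-fold, adjusted p = 6.35e-05) and Lyz2 by 3.32 ± 0.26 (9.97-fold, adjusted p = 3.5e-05). Another Lyz1 probe set, untested, lay between 4.82 and 5.59 on all 6 arrays.

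Across the macrophage and myeloid genes, 13 of 16 tested rose from 8 h to 16 h and 0 fell, with a median log2 difference of 1.98. Of these 13, Itgb2 and Cybb passed the dim filter only through their 16 h values. Ctss, which encodes the lysosomal protease cathepsin S, had 6.89 and 8.70 without hCG, 7.64 and 8.49 at 8 h, and 11.04 and 11.56 at 16 h. Its rise of 3.23 ± 0.50 (9.37-fold, adjusted p = 0.00164) exceeded the gap of 1.80 between the arrays without hCG, the largest replicate gap among the members. Itgb2, the shared beta chain of leukocyte integrins, had 5.56 and 5.68 without hCG, 4.90 and 5.75 at 8 h, and 8.26 and 8.50 at 16 h. It rose by 3.06 ± 0.25 (8.35-fold, adjusted p = 4.43e-05). Of its alpha chain partners, Itgax lay between 5.63 and 6.0 on all 6 arrays and was not called (0.17 ± 0.15, adjusted p = 0.538). The partner Itgam, too dim for a test, had 4.28 and 4.17 without hCG, 4.48 and 4.30 at 8 h, and 4.74 and 5.46 at 16 h.

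The IgG receptor gene Fcgr3 climbed in both intervals. It had 6.66 and 5.88 without hCG, 7.90 and 7.81 at 8 h, and 10.46 and 9.99 at 16 h, and no group overlapped another. It rose by 1.59 ± 0.26 at 8 h against no hCG (3.01-fold, adjusted p = 0.001) and by 2.36 ± 0.26 from 8 h to 16 h (5.15-fold, adjusted p = 0.000215). Tyrobp and Fcer1g, adaptor genes of myeloid receptors, were called from 8 h to 16 h and not at 8 h against no hCG. Tyrobp had 5.84 and 6.23 without hCG, 6.03 and 5.81 at 8 h, and 8.24 and 7.94 at 16 h, a rise of 2.17 ± 0.19 from 8 h to 16 h (adjusted p = 6.93e-05). Fcer1g, the Fc receptor gamma chain, had 6.41 and 6.35 without hCG, 6.53 and 6.51 at 8 h, and 7.45 and 7.39 at 16 h, a rise of 0.90 ± 0.15 (adjusted p = 0.00227).

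Cybb, the catalytic subunit of the phagocyte NADPH oxidase, had 5.17 and 4.96 without hCG, 4.53 and 4.79 at 8 h, and 7.03 and 7.27 at 16 h, and rose by 2.49 ± 0.17 (5.62-fold, adjusted p = 1.82e-05) from 8 h to 16 h. Its other probe sets were dim, with values between 4.25 and 5.19. Cd68, a lysosomal glycoprotein of macrophages, had 6.08 and 6.61 without hCG, 6.22 and 6.58 at 8 h, and 8.58 and 8.21 at 16 h. It rose by 1.99 ± 0.22 (adjusted p = 0.000261). The mannose receptor gene Mrc1, an endocytic receptor of tissue macrophages, had 6.85 and 6.77 without hCG, 6.46 and 6.92 at 8 h, and 8.47 and 8.82 at 16 h, and rose by 1.96 ± 0.20 (adjusted p = 0.000145). Mpeg1, a pore-forming protein of macrophages, rose by 1.65 ± 0.21 (adjusted p = 0.000602). Adgre1, the adhesion receptor behind a standard mouse macrophage antigen, had 6.47 and 6.48 without hCG, 6.65 and 6.58 at 8 h, and 7.89 and 8.05 at 16 h, and rose by 1.35 ± 0.15 (adjusted p = 0.000257). For each of these genes both 16 h arrays were above all other arrays.

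Csf1r, the receptor through which macrophages receive their main growth signal, rose in both intervals by its brightest probe set. That probe set had 6.53 and 6.95 without hCG, 8.03 and 8.16 at 8 h, and 8.83 and 9.15 at 16 h, a rise of 1.36 ± 0.19 at 8 h against no hCG (adjusted p = 0.000448) and of 0.89 ± 0.19 from 8 h to 16 h (adjusted p = 0.0101). The second rise was not called on leaving out 8 h replicate 1 (adjusted p = 0.0845) or 16 h replicate 2 (adjusted p = 0.102), where all alternatives spanned 0.00241 to 0.102. Neither of the other probe sets was called in either interval, and from 8 h to 16 h they had 0.37 ± 0.19 (adjusted p = 0.235) and 0.27 ± 0.16 (adjusted p = 0.314). Spi1, the transcription factor that directs myeloid development, had 6.26 and 6.02 without hCG, 6.0 and 6.10 at 8 h, and 6.42 and 6.55 at 16 h. Its difference of 0.44 ± 0.16 from 8 h to 16 h was not called (adjusted p = 0.0959), although the 16 h arrays lay above the other 4. The calcium-binding macrophage gene Aif1 and the haemoglobin scavenger receptor gene Cd163 were too dim to test, with ranges of 4.34 to 4.73 and 4.15 to 4.49.

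**Figure D3:**
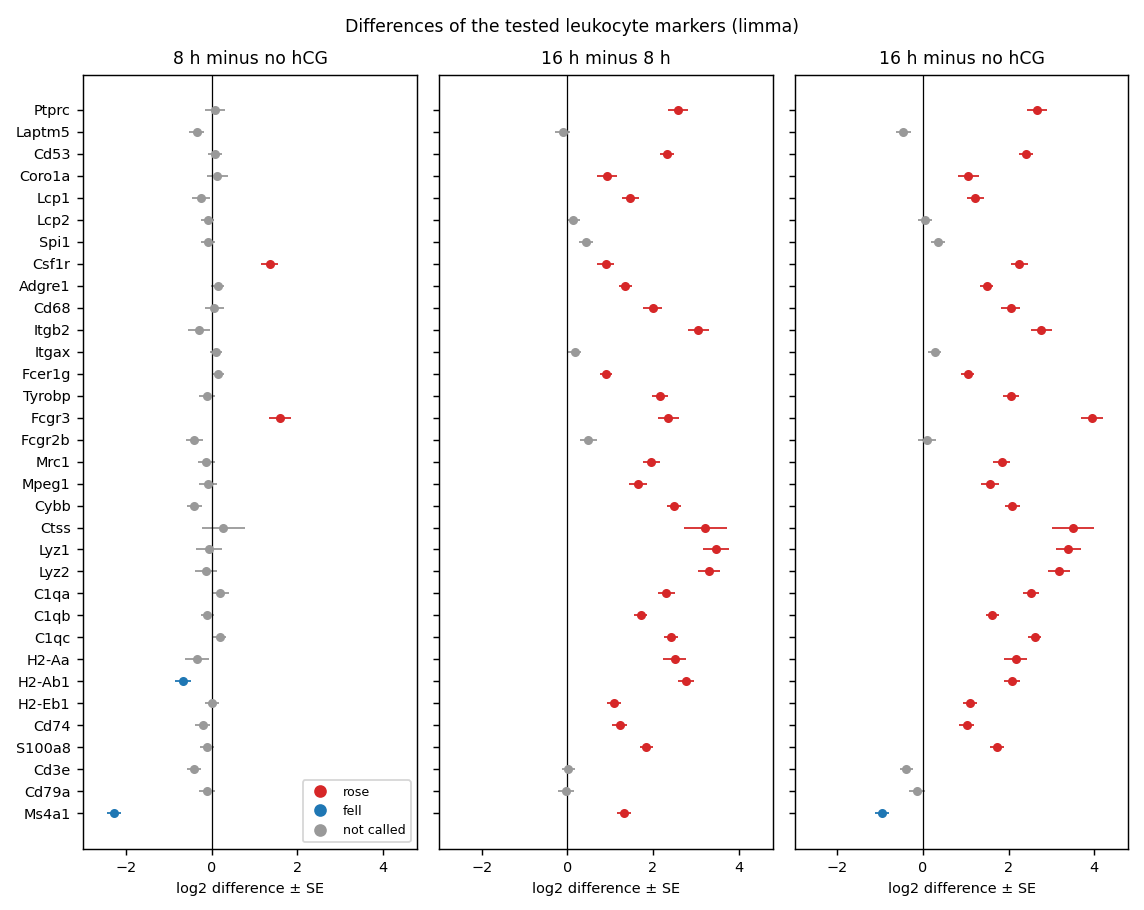
Log2 differences ± SE (limma, n = 2 arrays per group) of the 33 tested markers in the 3 comparisons, with red for genes that rose, blue for genes that fell and grey for genes not called. At 8 h against no hCG 29 of the 33 are grey, and from 8 h to 16 h 26 are red.

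All 3 genes of complement C1q, the recognition molecule of the classical pathway that macrophages secrete, rose from 8 h to 16 h. C1qa had 5.72 and 6.14 without hCG, 6.05 and 6.22 at 8 h, and 8.60 and 8.30 at 16 h. C1qc had 6.31 and 6.59 without hCG, 6.66 and 6.61 at 8 h, and 9.04 and 9.08 at 16 h, and for both genes the 16 h arrays stood apart from the rest. The rises from 8 h to 16 h were 2.31 ± 0.19 for C1qa (4.97-fold, adjusted p = 4.78e-05) and 2.42 ± 0.16 for C1qc (5.36-fold, adjusted p = 1.34e-05). C1qb had 7.76 and 7.82 without hCG, 7.63 and 7.76 at 8 h, and 9.45 and 9.37 at 16 h by its brightest probe set, a rise of 1.72 ± 0.15 (adjusted p = 6.59e-05). Its other probe sets rose by 2.02 ± 0.17 and 2.84 ± 0.22, so the size of the C1qb change depended on the probe set while the direction did not. No C1q gene was called at 8 h against no hCG.

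The class II genes H2-Aa, H2-Ab1 and H2-Eb1 encode chains of the molecules that display peptides to helper T cells, and Cd74 encodes the invariant chain that guides their assembly. All 4 rose from 8 h to 16 h. H2-Ab1 had 7.49 and 7.74 without hCG, 6.98 and 6.89 at 8 h, and 9.92 and 9.49 at 16 h, so its 8 h arrays were the lowest and its 16 h arrays the highest. It rose by 2.77 ± 0.19 from 8 h to 16 h (6.81-fold, adjusted p = 1.47e-05). H2-Aa had 5.80 and 6.16 without hCG, 5.24 and 6.03 at 8 h, and 8.39 and 7.89 at 16 h, a rise of 2.51 ± 0.27 (5.68-fold, adjusted p = 0.000231), and another H2-Aa probe set rose by 0.85 ± 0.16 (adjusted p = 0.00515). H2-Eb1 and Cd74 changed less in these values. H2-Eb1 had 6.81 and 7.02 without hCG, 6.78 and 7.06 at 8 h, and 7.97 and 8.05 at 16 h, a rise of 1.09 ± 0.17 (adjusted p = 0.00162). Cd74 had 6.82 and 6.75 without hCG, 6.36 and 6.80 at 8 h, and 7.79 and 7.82 at 16 h, a rise of 1.22 ± 0.18 (adjusted p = 0.00118). Class II haplotypes are polymorphic and related in sequence, so these probe sets may read more than the named gene.

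Promoter sequences of the members, called or not, were searched for 3 short sequences on both strands, in windows from 250 bases before to 50 bases after the start, of which 30 members had at least 1. GAGGAA, the core recognised by the Spi1 protein, was in a window of 16 of the 30, against 31.3% of 27025 genes with a window. AGGAAGT, which can overlap GAGGAA by 5 bases, was in 11 of 30 against 10.7%. It and TGATTGG were chosen after some of the windows had been read, so these counts are descriptions. TGATTGG, which holds the inverted CCAAT sequence known as the Y box of class II promoters, was in 3 of 30 against 9.0%, and the members were H2-Aa, H2-Eb1 and Cd68. A match is a description of letters, not a bound site. Members not called from 8 h to 16 h by their brightest probe sets held them too. Cd3e and Cd79a had both GAGGAA and AGGAAGT, and Laptm5 and Lcp2 had GAGGAA. Whether the sequences bear on the rises was not tested. Sequences of 4 genes follow as examples, all from genes that rose from 8 h to 16 h. They have ACTTCCT or TGATTGG in capitals: C1qb at chr4:136886207-136886293 (minus strand), C1qc at chr4:136893063-136893149 (minus), H2-Aa at chr17:34287827-34287913 (minus) and H2-Eb1 at chr17:34305766-34305852 (plus), from RefSeq on GRCm38.p6.
C1qb: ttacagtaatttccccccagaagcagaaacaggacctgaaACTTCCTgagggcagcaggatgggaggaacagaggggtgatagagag
C1qc: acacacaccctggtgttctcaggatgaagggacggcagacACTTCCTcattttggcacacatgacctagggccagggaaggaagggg
H2-Aa: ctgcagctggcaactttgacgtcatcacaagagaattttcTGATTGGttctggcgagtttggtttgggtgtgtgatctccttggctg
H2-Eb1: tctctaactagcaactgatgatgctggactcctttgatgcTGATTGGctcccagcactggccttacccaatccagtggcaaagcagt

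S100a8 and S100a9 encode the paired calcium-binding proteins that fill the cytoplasm of neutrophils. S100a8 had 5.25 and 5.15 without hCG, 5.07 and 5.12 at 8 h, and 7.04 and 6.82 at 16 h, and rose by 1.84 ± 0.16 from 8 h to 16 h (3.59-fold, adjusted p = 5.39e-05). It was the only neutrophil member tested and passed the dim filter only through its 16 h values. S100a9 was too dim to test, with 4.65 and 4.54 without hCG, 4.57 and 4.78 at 8 h, and 5.56 and 5.03 at 16 h, where both arrays lay above the other 4. From 8 h to 16 h, 11.8% of all tested genes rose and 9.12% fell. On a list of further neutrophil genes, 2 of 9 tested rose in that interval and 0 fell. They were Camp, the cathelicidin of neutrophil granules (1.07 ± 0.22, adjusted p = 0.00796), which had already risen at 8 h by 3.13 ± 0.22 (adjusted p = 5.82e-06), and the granulocyte growth factor receptor gene Csf3r (0.57 ± 0.16, adjusted p = 0.0362). At 8 h against no hCG, 2 of the 9 rose and 2 fell, while 16.9% of all tested genes rose and 20.5% fell. The 2 that fell were Cd177 (−3.15 ± 0.16, adjusted p = 1.13e-06) and Il1r2 (−0.77 ± 0.19, adjusted p = 0.0121). Both were also called lower at 16 h than without hCG.

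Among lymphocyte markers calls were few from 8 h to 16 h, when 11.8% of all tested genes rose and 9.12% fell. Cd3e, a chain of the T cell receptor complex, had 8.00 and 7.93 without hCG, 7.63 and 7.47 at 8 h, and 7.51 and 7.63 at 16 h, and its difference from 8 h to 16 h was 0.02 ± 0.15 (adjusted p = 0.959). Cd3g was dim, between 4.20 and 4.42 on all 6 arrays. Of the further T and NK cell genes, 9 were tested, and 0 rose or fell by limma in any of the 3 comparisons (1, 0 and 1 at an unadjusted p under 0.05, for 8 h against no hCG, for 16 h against 8 h and for 16 h against no hCG). The brightest of them, the T cell kinase gene Zap70, lay between 8.25 and 8.77 on all 6 arrays. Cd79a, a signalling chain of the B cell receptor, lay between 5.61 and 6.11 and was not called from 8 h to 16 h (−0.03 ± 0.19, adjusted p = 0.954). Its partner Cd79b, not tested, had 5.24 and 4.77 without hCG, 4.73 and 5.13 at 8 h, and 5.38 and 5.55 at 16 h. Of 5 tested further B cell genes, 0 rose from 8 h to 16 h and 1 fell, Ly6d (−0.72 ± 0.16, adjusted p = 0.0101), after a rise at 8 h.

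Ms4a1, which encodes the B cell surface protein CD20, was the member that fell at 8 h and was still lower at 16 h than without hCG. It had 7.90 and 7.65 without hCG, 5.56 and 5.43 at 8 h, and 6.81 and 6.81 at 16 h. No group overlapped another, with the highest values before hCG and the lowest at 8 h. It fell at 8 h against no hCG (−2.28 ± 0.16, adjusted p = 5.88e-06) and rose by 1.32 ± 0.16 from 8 h to 16 h (adjusted p = 0.000413). A dimmer, untested Ms4a1 probe set had 6.17 and 6.71 without hCG, 4.44 and 4.45 at 8 h, and 4.87 and 4.74 at 16 h. Oocyte transcripts also changed in these intervals. All 17 tested oocyte markers fell at 8 h, while 20.5% of all tested genes did. From 8 h to 16 h, when 11.8% of all tested genes rose and 9.12% fell, the oocyte markers were split. Of the 17, 5 rose and 6 fell in that interval, with a median log2 difference of −0.24. Among the 5 was the oocyte growth factor gene Gdf9 (−1.92 ± 0.17 at 8 h against no hCG, 1.16 ± 0.17 from 8 h to 16 h, adjusted p = 2.14e-05 and 0.00108). The part of oocyte RNA in the Ms4a1 values was not tested.

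The comparison of 8 h with no hCG asked whether leukocyte markers had already moved before the later interval. Of 33 tested genes, 2 rose and 2 fell, while 16.9% of all tested genes rose and 20.5% fell, and the median log2 difference was −0.09 over the members and −0.02 over all tested genes. By probe set, 2 of 46 rose and 3 fell, against 16.4% and 17.5% of all tested probe sets, of which 33.9% were called either way. Fcgr3 and Csf1r rose, and Ms4a1 and H2-Ab1 fell. The difference of H2-Ab1 was −0.68 ± 0.19 (adjusted p = 0.0181), and its second probe set was not called (−0.36 ± 0.16, adjusted p = 0.126). The call for H2-Ab1 did not survive leaving out replicate 2 without hCG (adjusted p = 0.0658) or replicate 1 or 2 of the 8 h group (adjusted p = 0.0687 and 0.108, where all alternatives spanned 0.0137 to 0.108). Lyz1 and Lyz2 passed the test downward at 8 h when replicate 1 of the complexes without hCG was left out (adjusted p = 0.0451 and 0.0455), and Ctss upward when replicate 2 was (adjusted p = 0.0154), so the calls of these 3 genes in the first interval hung on which of those arrays was kept. Itgb2 passed downward without replicate 2 of the 8 h group (adjusted p = 0.0469).

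Over the whole course, 16 h against no hCG, 25 of 33 genes rose and 1, Ms4a1, fell (−0.96 ± 0.16, adjusted p = 0.00108), while 20.8% of all tested genes rose and 20.8% fell. The 25 again include the 6 genes that passed the dim filter only through their 16 h values. By probe set, 35 of 46 rose and 1 fell, against 19.0% and 18.3% of all tested probe sets, of which 37.3% were called either way. The largest difference was that of Fcgr3 (3.95 ± 0.26, 15.5-fold, adjusted p = 2.57e-06), followed by Ctss (3.50 ± 0.50, adjusted p = 0.000402), Lyz1 (3.40 ± 0.30, adjusted p = 1.92e-05) and Lyz2 (3.18 ± 0.26, adjusted p = 1.17e-05). This comparison shares arrays with both others. By pattern, 22 genes were not called at 8 h against no hCG and rose in both other comparisons, 7 were called in no comparison (Laptm5, Lcp2, Spi1, Itgax, Fcgr2b, Cd3e and Cd79a by their brightest probe sets), and Csf1r and Fcgr3 rose in all 3.

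Other genes of macrophages gave a mixed count. Of 14 tested on a list of further macrophage genes, 8 rose from 8 h to 16 h and 0 fell, with a median of 0.70, and 11 more were too dim to test. Of all tested genes, 11.8% rose and 9.12% fell in that interval, for comparison with this list and those below. At 16 h against no hCG, 7 of the 14 rose and 1 fell, while 20.8% of all tested genes rose and 20.8% fell. From 8 h to 16 h, Slc11a1, the phagosomal metal transporter, rose by 2.63 ± 0.16 (adjusted p = 9.86e-06) and the beta-glucan receptor gene Clec7a by 2.11 ± 0.21 (adjusted p = 0.000136). In that interval the endotoxin co-receptor gene Cd14 rose by 2.04 ± 0.18 (adjusted p = 7.73e-05) and the scavenger receptor gene Marco by 1.80 ± 0.17 (adjusted p = 8.76e-05). Slc11a1 and Cd14 had already risen at 8 h against no hCG (0.79 ± 0.16 and 1.02 ± 0.18, adjusted p = 0.00365 and 0.00195), while Clec7a and Marco were not called. From 8 h to 16 h, leukocyte signalling and NADPH oxidase genes rose in 3 of 19 tested cases and fell in 0. Among them were the oxidase subunit gene Ncf1 (0.92 ± 0.19) and the myeloid transcription factor gene Irf8 (0.71 ± 0.18), with adjusted p-values of 0.00751 and 0.0205. At 8 h against no hCG, 2 of the 19 had risen and 6 had fallen, while 16.9% of all tested genes rose and 20.5% fell. Irf8 was among those that had fallen (−1.12 ± 0.18, adjusted p = 0.000856). At 16 h against no hCG Irf8 was not called (−0.41 ± 0.18, adjusted p = 0.0973). Of 7 tested further antigen presentation genes, 2 rose from 8 h to 16 h and 0 fell. They were the lysosomal thiol reductase gene Ifi30 (1.16 ± 0.17, adjusted p = 0.0011) and the asparaginyl protease gene Lgmn (1.86 ± 0.16, adjusted p = 5.79e-05). At 8 h against no hCG Ifi30 had fallen (−0.61 ± 0.17, adjusted p = 0.0183) and Lgmn had risen (1.73 ± 0.16, adjusted p = 2.89e-05). Of 5 tested dendritic cell genes 1 rose from 8 h to 16 h, Cd83 (2.69 ± 0.20, adjusted p = 2.92e-05). Cd83 had fallen at 8 h against no hCG (−0.82 ± 0.20, adjusted p = 0.0113). From 8 h to 16 h, 0 of 2 tested mast cell and eosinophil genes rose or fell by limma, and 0 had an unadjusted p under 0.05.

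Chemokines and growth factors of leukocytes rose in 3 of 16 tested cases from 8 h to 16 h and fell in 1. Of all tested genes, 11.8% rose and 9.12% fell. The myeloid chemokine gene Ccl6 had 5.50 and 5.96 without hCG, 6.61 and 7.06 at 8 h, and 10.07 and 10.42 at 16 h, a rise of 3.41 ± 0.22 from 8 h to 16 h (10.6-fold, adjusted p = 1.33e-05). Ccl9 rose by 2.29 ± 0.20 (adjusted p = 6.9e-05) and the neutrophil attractant gene Cxcl2 by 1.75 ± 0.24 (adjusted p = 0.000895). Ccl6 and Ccl9 had already risen at 8 h against no hCG (1.10 ± 0.22 and 0.95 ± 0.20, adjusted p = 0.00379 and 0.00496), while Cxcl2 was not called. Cx3cl1, a membrane-bound chemokine, fell (−0.82 ± 0.17, adjusted p = 0.00901).

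**Figure D4:**
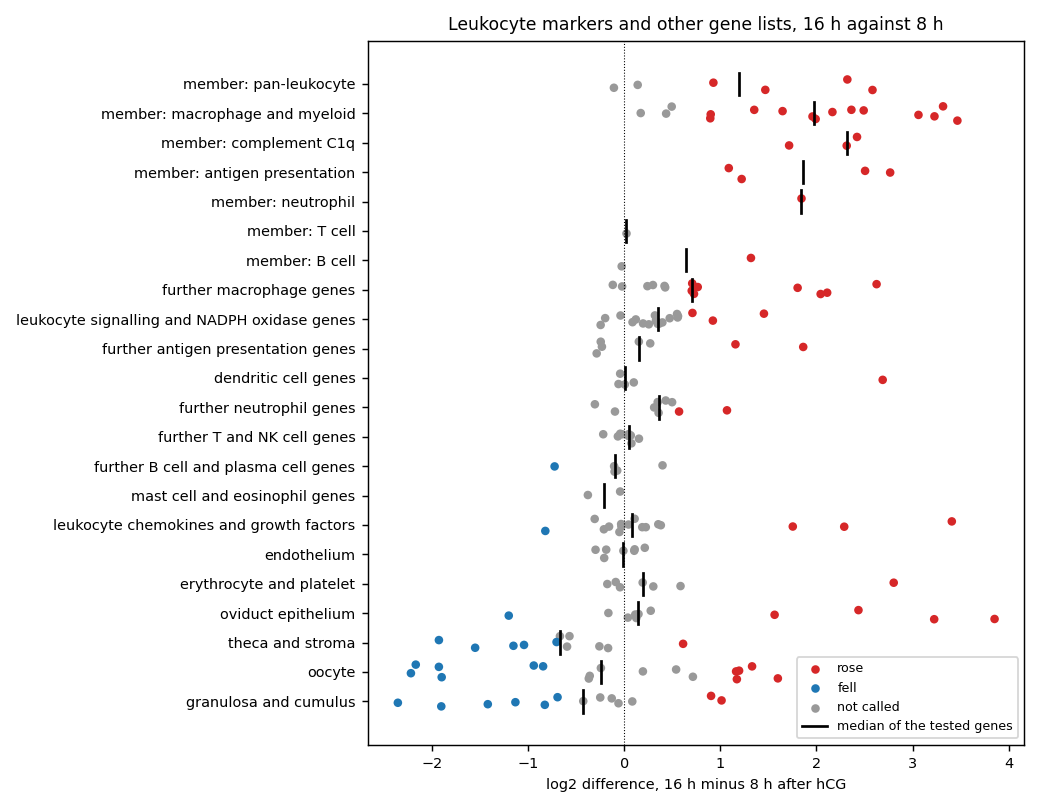
Log2 differences, 16 h minus 8 h, of every tested gene of the marker lineages, of further leukocyte lists and of other cell types (rows), with the median of each row as a black bar and red, blue and grey for rose, fell and not called. The macrophage, C1q and antigen presentation rows lie mostly to the right of 0 and the further T and NK cell row around 0; vertical scatter within a row has no meaning.

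Markers of other cell types moved in the same interval, from 8 h to 16 h, when 11.8% of all tested genes rose and 9.12% fell. The oviduct epithelium list had 4 of 11 tested genes rising and 1 falling from 8 h to 16 h. Its summed linear intensity was 4127 to 4360 without hCG, 2866 to 3036 at 8 h and 9992 to 11612 at 16 h. Its defining marker Ovgp1, an oviduct glycoprotein, had 7.90 and 9.58 without hCG, 7.30 and 8.46 at 8 h, and 11.95 and 11.52 at 16 h, while Foxj1, which marks ciliated cells, stayed under the dim limit in all groups. Ovgp1, Ctss, Lyz1 and Lyz2 were each higher on replicate 2 than on replicate 1 of the group without hCG. In that group replicate 2 was higher for 18 of the 33 tested members (54.5%) and for 53.7% of all tested genes. At 8 h the order of Ovgp1, Ctss, Lyz1 and Lyz2 was the same. Replicate 2 was then higher for 23 of the 33 members (69.7%) and for 52.2% of all tested genes. At 16 h Ovgp1 was lower on replicate 2, while Ctss, Lyz1 and Lyz2 were higher. Among the 16 h arrays, replicate 2 was higher for 21 of the 33 members (63.6%) and for 42.3% of all tested genes. On the erythrocyte and platelet list 1 of 7 tested genes rose, the platelet chemokine gene Pf4 (2.80 ± 0.16, adjusted p = 8.5e-06), and the list summed to 934 to 1008 without hCG, 883 to 890 at 8 h and 1541 to 1791 at 16 h. The erythroid gene Alas2 was not called (0.59 ± 0.24, adjusted p = 0.138). Of 7 tested endothelial genes 0 rose or fell in this interval by limma (0 also at an unadjusted p under 0.05), and Pecam1 stayed under the dim limit in all groups. Cdh5, the other defining endothelial marker, had already risen at 8 h against no hCG (2.86 ± 0.25, adjusted p = 2.16e-05). From 8 h to 16 h it was not called (0.10 ± 0.25, adjusted p = 0.853). Of 11 tested theca and stroma markers 1 rose and 5 fell, and of 13 granulosa and cumulus markers 2 rose and 6 fell. The part of these cell types in the leukocyte marker values was not tested.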

How the data were processed

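The deposited table holds 1 log2 value per probe set for each of 6 arrays hybridised with biotin-labelled cRNA of pooled complexes, per the labels' protocols. Their range of 3.32 to 15.5 shows the log2 scale. How the authors corrected background, normalized and summarised these deposited log2 values is not given in the sources used here, and array medians (6.14 to 6.27) were close, so values were used as they were. Of 45101 probe sets, 64 controls were left out. Symbols came from the platform annotation (34945 probe sets with 1 symbol, 932 with several, 9160 with none), and those with several were left unnamed. Arrays were grouped by title. Precision is limited by the 2 arrays of each group.

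Group means of all 6 arrays were fitted with limma 3.58.1 in R 4.3.3 (lmFit, eBayes; 3 residual and 6.43 prior degrees of freedom), two-sided, called at an adjusted p under 0.05. On simulated arrays with 27022 probe sets the fit recovered 90 of 100 changes of 1 and 100 of 100 changes of 2 on the log2 scale for 16 h against 8 h. Alternatives were quantile normalization, other dim filters, a replicate block, a fit on the compared groups only, a trended robust prior, other choices of probe set, a minimum fold of 2 and leaving out each array. The text names all 40 members and, of each further list, up to 4 called genes with the largest difference from 8 h to 16 h, plus defining cell type markers. Cd177 and Il1r2 are named besides, as the further neutrophil genes that fell at 8 h. Of the leukocyte signalling list, 1 called gene is not reported here. Where a list had no call, its brightest gene could be named. Members and lists were chosen with earlier results of these data known, and AGGAAGT and TGATTGG after some promoter windows had been read.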

Additional observations from a re-analysis of the deposited data

How the results depend on the processing

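Calls of single markers were mostly kept. From 8 h to 16 h, 24 of 26 calls held under every alternative that tested the gene, other than the minimum fold of 2 (exceptions Coro1a and Csf1r), at 8 h against no hCG 3 of 4 (exception H2-Ab1) and at 16 h against no hCG 24 of 26 (exceptions Coro1a and Lcp1). A minimum fold of 2 left 23 markers that rose from 8 h to 16 h, with Fcer1g, Coro1a and Csf1r lost, and ended the Ms4a1 call at 16 h against no hCG. With the mean of a gene's tested probe sets, Laptm5 turned upward, with 1.14 from 8 h to 16 h and 0.98 at 16 h against no hCG.

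For the 16 h against 8 h comparison, the count of markers that rose was 14 when probe sets under the 60th percentile were left out, where 17 genes were tested, and the median was 1.34 without a dim filter, where all 40 were. At 16 h against no hCG these values were 14 and 1.36, and the count of markers that fell was 2 with a replicate block, quantile normalization, a trended robust prior or the mean of probe sets, and 0 with the 60th percentile filter or a minimum fold of 2. At 8 h against no hCG, 1 marker fell with the 60th percentile filter, without probe sets prone to cross-hybridisation (IDs ending in _x_at, _s_at or _a_at) and with a minimum fold of 2. With that minimum, probe sets called numbered 4227 for the first interval, 2076 for the second and 4728 for the whole course. Leaving out 1 array gave 6109 to 9450, 2518 to 6340 and 7312 to 10345 probe sets, 1 to 4 markers that fell at 8 h, and 1 to 2 at 16 h against no hCG. A lone array is then assumed to vary like the other groups.

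Deviations of same-numbered arrays from their group means correlated at 0.468 between no hCG and 8 h. They correlated at 0.00 between no hCG and 16 h and at 0.13 between 8 h and 16 h. The labels do not say whether the numbers pair the arrays, and these values do not settle it. The replicate block called 10117, 5812 and 11045 probe sets for the first interval, the second and the whole course. The main fit called 9167, 4922 and 10072. The cause of these changes was not tested beyond the smaller number of genes or arrays where stated.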
